A study of Homo sapiens with 8 samples.

Results

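The proteasome is the protease complex that degrades ubiquitin-tagged proteins in the cytosol and nucleus. Its 20S core is a barrel of alpha and beta rings, its 19S regulatory particle recognises, unfolds and feeds in substrates, and other activators can cap the barrel instead. Interferon replaces the catalytic beta subunits PSMB5, PSMB6 and PSMB7 with PSMB8, PSMB9 and PSMB10 in newly built particles, the immunoproteasome, and raises the activator subunits PSME1 and PSME2, which changes the peptides available to MHC class I. In intestinal epithelium the inducible subunits are best known from inflamed mucosa.

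Genes were taken by symbol, as all entries named PSMA to PSMG followed by a number, with the entry of highest mean where a symbol stood on several. This gave 48 genes from a table of 63816 entries, among them 5 inducible genes (PSMB8, PSMB9, PSMB10, PSME1 and PSME2) and 31 constitutive subunits of the 20S core and the 19S particle. Of the other genes, 7 encode assembly factors, 3 encode other activators or an inhibitor, and 2 are tissue-restricted core subunits. The symbol rule itself used no difference between the groups.

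RNA was sequenced from Caco-2, an established line from a human colorectal adenocarcinoma that the study describes as lacking Siglec-XII. There were 4 samples transfected with empty pcDNA3.1 and 4 with the same vector carrying full-length SIGLEC12, and both groups were selected with G418 for stable integration, with no further treatment named in the labels. The series text calls the selected cells stable clones, and the number of clones behind each group is not given in the sources used here. It also speaks of fewer cultures than the 4 samples listed, and the methods describe technical replicate libraries, so p-values measure the spread between these libraries, which may be technical. The vectors went into separately transfected and selected cells, and what Siglec-XII does cannot be told apart from how those cell populations differ otherwise. Because whole cultures were measured, fewer expressing cells and less RNA per cell cannot be told apart either.

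The transfected gene followed the labels. SIGLEC12 (chromosome 19, 51994481 to 52005054 on the minus strand of GRCh37) was at 0.11 ± 0.05 log2(TPM + 1) in empty vector samples and 10.70 ± 0.06 with Siglec-XII (SD, n = 4 each, p = 0.0286 in a two-sided exact permutation test, its lower limit with 4 against 4 samples). TPM, the transcripts of a gene per 1000000 transcripts, is a level per transcript length relative to the rest of a sample's RNA. The markers of intestinal epithelium went only partly with the label. CDX1, CDX2, EPCAM, KRT8 and KRT18 were present, whereas villin (VIL1) was at 0.61 ± 0.22 and 0.78 ± 0.31, HNF4A was at 0.14 ± 0.07 and 0.10 ± 0.05, and KRT20 and FABP1 were listed at 0 in all 8 samples. Trophoblast-list genes such as GATA3, at 8.64 ± 0.22 and 8.49 ± 0.10, and HSD3B1, at 8.43 ± 0.09 and 8.43 ± 0.06, were high in both groups. Of the 12 genes of that list, 5 stood above 5 log2(TPM + 1) in both groups and 5, among them CGB5, GCM1 and CGA, below 1.5 in both. Of the blood cell markers, which bear on the inducible subunits because leukocytes carry them without interferon, PTPRC and CD3E did not exceed 0.11 log2(TPM + 1) in any sample, and the 8 markers together summed to 64.1 to 66.7 TPM in empty vector samples and 62.9 to 71.5 TPM with Siglec-XII, most of it CD74. The sums of the other marker lists were 7159 to 8136 and 8640 to 8955 TPM for 12 intestinal genes, 1001 to 1129 and 1040 to 1087 TPM for 12 trophoblast genes, and 70.7 to 86.8 and 83.2 to 89.1 TPM for 6 fibroblast genes. The intestinal sum, carried by KRT8 and KRT18, was higher in all Siglec-XII samples, and its part in the results below was not tested. Since the markers go partly against the label, the cells are called only by it below.

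The start-site sequences of the inducible genes are shown because most of them carry letters known from interferon-regulated genes, beside PSMB5, a constitutive counterpart, and IFIT1, an interferon-stimulated gene whose level differed between the groups. Windows were taken from RefSeq on GRCh38.p14, from 250 bases before to 50 bases after each start site, and 42 of the 48 genes had at least 1. Capitals mark matches on either strand to GAAANNGAAA, the core of the interferon-stimulated response element, or to TTCNNNGAA, the core of the gamma-activated site. Each line shows 120 bases before to 20 bases after the start site, read in the direction of transcription. PSMB8 lies at chr6:32844028-32844167 (minus strand, 1 of 2 windows, the one with matches), PSMB9 at chr6:32854072-32854211 (plus), PSMB10 at chr16:67936831-67936970 (minus), PSME1 at chr14:24136074-24136213 (plus), PSME2 at chr14:24146591-24146730 (minus), PSMB5 at chr14:23034881-23035020 (minus, 1 of 2 windows, the one with matches) and IFIT1 at chr10:89392503-89392642 (plus).
PSMB8: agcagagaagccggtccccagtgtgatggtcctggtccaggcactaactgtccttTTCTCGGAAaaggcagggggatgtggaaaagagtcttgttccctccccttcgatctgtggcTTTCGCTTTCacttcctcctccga
PSMB9: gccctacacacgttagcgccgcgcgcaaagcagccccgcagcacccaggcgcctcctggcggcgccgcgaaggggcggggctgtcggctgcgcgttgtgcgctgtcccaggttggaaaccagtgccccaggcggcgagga
PSMB10: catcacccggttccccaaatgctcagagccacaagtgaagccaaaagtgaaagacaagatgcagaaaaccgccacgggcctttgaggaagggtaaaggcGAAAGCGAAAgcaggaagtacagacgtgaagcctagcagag
PSME1: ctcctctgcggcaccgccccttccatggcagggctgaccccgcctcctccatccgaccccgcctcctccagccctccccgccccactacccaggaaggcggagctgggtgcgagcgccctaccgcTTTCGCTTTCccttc
PSME2: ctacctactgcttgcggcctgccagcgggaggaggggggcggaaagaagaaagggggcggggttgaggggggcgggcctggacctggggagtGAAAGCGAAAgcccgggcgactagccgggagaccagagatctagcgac
PSMB5: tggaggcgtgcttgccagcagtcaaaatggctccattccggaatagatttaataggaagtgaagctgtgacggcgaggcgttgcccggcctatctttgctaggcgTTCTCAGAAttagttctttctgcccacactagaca
IFIT1: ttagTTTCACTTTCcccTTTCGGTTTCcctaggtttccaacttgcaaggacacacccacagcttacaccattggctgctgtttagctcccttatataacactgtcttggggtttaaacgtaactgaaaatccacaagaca

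The core GAAANNGAAA stood in the windows of 4 of the 5 inducible genes, with its first base 4 bases before the start site in PSMB8, 21 before in PSMB10, 28 before in PSME2 and 5 after it in PSME1. PSMB9 had no match in its window, and its start site lay 488 bases from the nearest start site of TAP1, a peptide transporter gene whose own window held the core. Outside the inducible genes the core occurred in PSMA4, PSMB4 and PSMG4, and over all 35116 windows of the table it occurred in 3.57%. In all 4 inducible genes, and in the assembly factor PSMG4, the match had the same 10 letters, GAAAGCGAAA on one strand or the other. This exact string was noted after the windows had been read, and it stood in 35 (0.0997%) of all windows. TTCNNNGAA stood in 8 of 51 windows of proteasome genes, against 7.66% of all windows, and among the inducible genes only in PSMB8. A match describes these letters and is not evidence of binding.

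The constitutive subunits were abundant and the inducible catalytic subunits were not. With all entries of a symbol summed, the 31 constitutive genes ran from 94.8 TPM (PSMA5) to 479 TPM (PSMA7) with the empty vector, with a median of 186 TPM. The inducible catalytic genes stood far below this range, PSMB8 at 13.4 ± 2.58 TPM, PSMB10 at 12.6 ± 1.85 TPM and PSMB9 at 10.8 ± 1.42 TPM (SD, n = 4). Neighbours in that order differed by less than the SD of the higher one, and with Siglec-XII the first of the order was PSMB10 at 14.7 ± 0.955 TPM, ahead of PSMB8 at 13.4 ± 2.005 TPM and PSMB9 at 11.3 ± 0.908 TPM. The activator subunits were higher, with PSME1 at 100.7 ± 5.39 TPM and PSME2 at 83.6 ± 4.19 TPM, close to the lowest constitutive genes. All proteasome genes together took 0.734% ± 0.0218 of all TPM in the empty vector samples and 0.755% ± 0.0170 with Siglec-XII. The thymus-restricted subunit PSMB11 was above 0 in only 1 empty vector sample, at 0.12 log2(TPM + 1), and the testis-restricted subunit PSMA8 was listed at 0 in all 8 samples, which left 46 genes that passed the filter of at least 1 TPM in at least 4 samples.

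**Figure D1:**
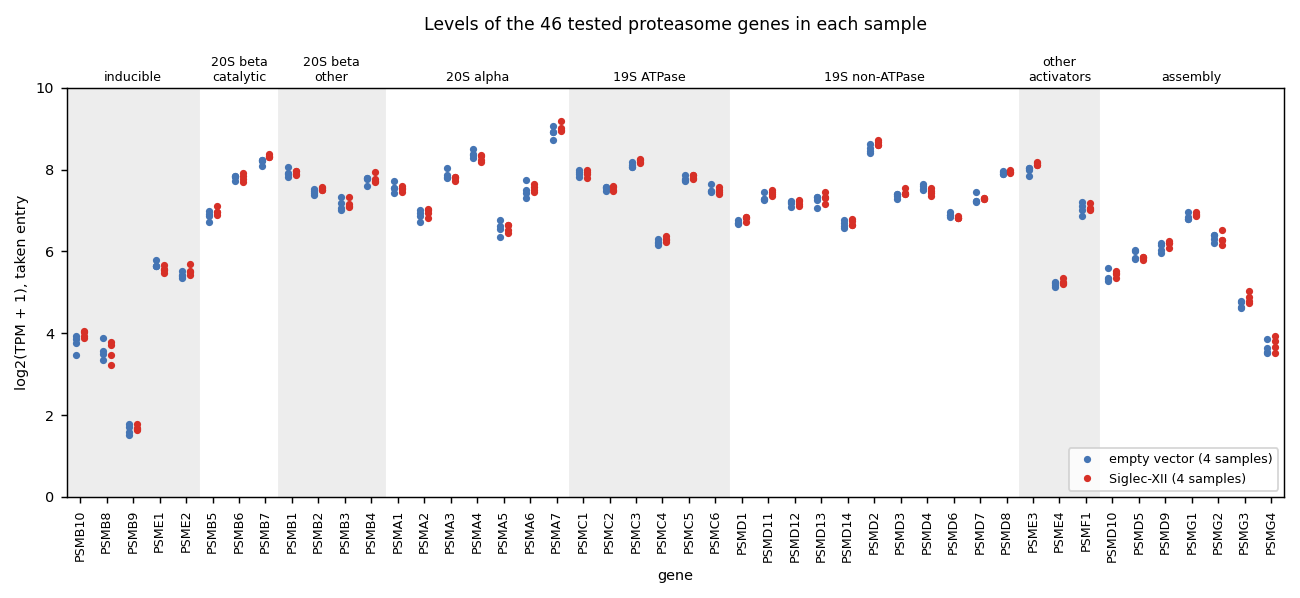
Level of each of the 46 tested genes (x axis) as log2(TPM + 1) of its taken entry (y axis), 1 point per sample, blue for the empty vector and red for Siglec-XII, with shading by role. PSMB9, PSMB8 and PSMB10 sit below all constitutive subunits, and the points of both groups lie together for nearly every gene.

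No proteasome gene differed between the groups at a limma adjusted p under 0.05, 0 of 46, where 0.648% of all 15590 tested entries did. At an unadjusted p under 0.05 there were 4 genes (8.70%), all higher with Siglec-XII, against 16.5% of all tested entries. In 3 genes, again all higher, the samples of the groups did not overlap (were apart), against 10.8% of all tested entries. The differences, Siglec-XII minus empty vector, were positive in 32 genes and negative in 14, with a median of 0.04 on the log2(TPM + 1) scale, beside a median of 0.07 over all tested entries. With quantile normalization 20 of the 46 were positive, with equal upper quartiles 21 and with the trend on transcript length removed 20, so the split of signs follows the scale used. Over all tested entries 68.1% were positive as deposited and 52.9%, 53.5% and 49.1% under those settings. The unadjusted count changed with the scale as well, to 3 higher and 6 lower with quantile normalization, 1 higher and 6 lower with equal upper quartiles and 2 higher and 6 lower with the length trend removed, against 12.6%, 12.9% and 13.5% of all tested entries. The genes with groups apart became 2 higher and 5 lower with quantile normalization and 2 higher and 4 lower with equal upper quartiles, against 7.87% and 8.19%. The 95% intervals of all 46 genes lay between -0.36 and 0.45, so a difference of 1 on this scale lay outside every interval.

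**Figure D2:**
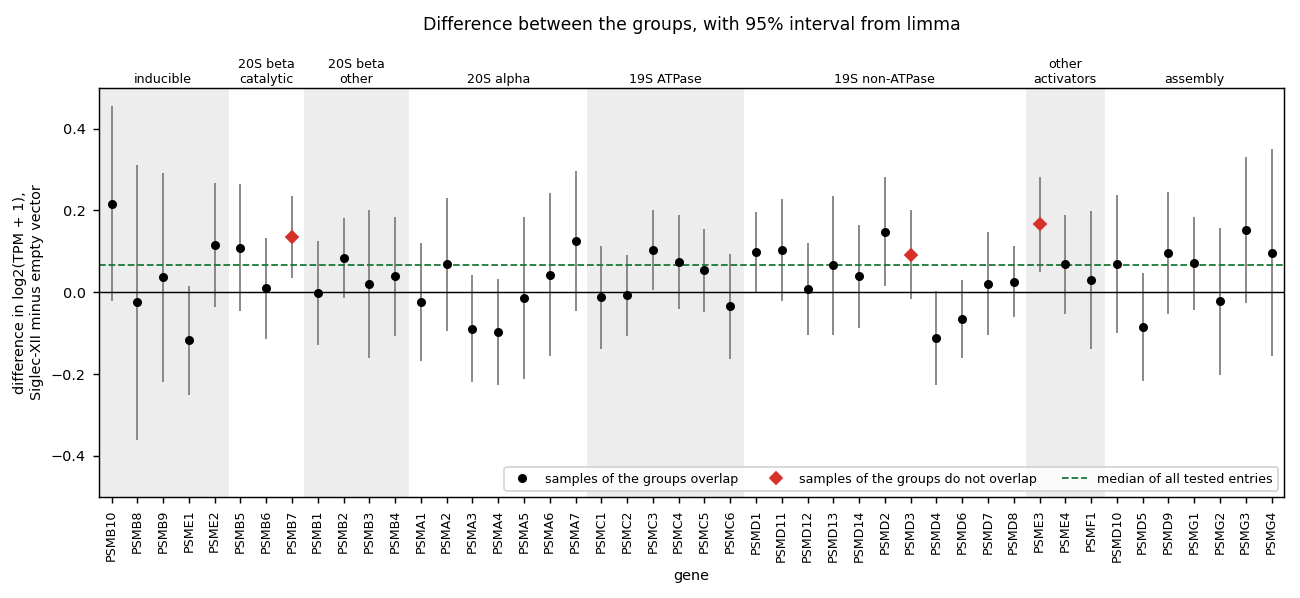
Difference between the groups in log2(TPM + 1) for each gene (y axis), Siglec-XII minus empty vector, with 95% intervals from limma, grouped by role on the x axis. Diamonds mark PSMB7, PSMD3 and PSME3, whose groups do not overlap, and the dashed line is the median of all tested entries, 0.07.

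PSMB8, the inducible chymotrypsin-like subunit, overlapped widely between the groups. The empty vector samples 1 to 4 were at 3.56, 3.89, 3.34 and 3.48 log2(TPM + 1), and the Siglec-XII samples 1 to 4 at 3.22, 3.47, 3.70 and 3.79. The highest and the lowest value thus belonged to different groups, with the other samples mixed between them. The difference was -0.02 (SE 0.15, 95% interval -0.36 to 0.31, limma adjusted p = 0.951).

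PSMB9, the inducible counterpart of the caspase-like subunit, was the lowest of the tested genes by its taken entry. Its levels were 1.60, 1.79, 1.71 and 1.52 in empty vector samples and 1.70, 1.79, 1.65 and 1.63 with Siglec-XII, so the Siglec-XII samples lay inside or just above the empty vector range. The difference was 0.04 (SE 0.11, 95% interval -0.22 to 0.29, limma adjusted p = 0.902). PSMB8 and PSMB9 lie in the MHC class II region of chromosome 6. Each stood on 8 entries, those of alternative haplotypes among them, over which reads are divided. For PSMB8 the entry found in GENCODE averaged 0.118 TPM, and the taken entry, not found there, 10.9 TPM. For PSMB9 these entries averaged 2.19 and 2.20 TPM. The summed levels of PSMB8 and PSMB9 were 1.23 and 5.04 times those of the taken entries, and the differences of the sums were 0.01 and 0.06.

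PSMB10, the inducible trypsin-like subunit, had the largest positive difference of the 46 genes in the whole set of samples. Its levels were 3.46, 3.77, 3.86 and 3.93 in empty vector samples and 4.02, 4.06, 3.87 and 3.93 with Siglec-XII. Siglec-XII sample 3 lay inside the empty vector range, sample 4 of both groups was at 3.93, and empty vector sample 1 was the lowest. The difference was 0.22 (SE 0.11, 95% interval -0.02 to 0.45, limma adjusted p = 0.344). Without empty vector sample 1 it was 0.118, below PSMD2 at 0.192, PSMC3 at 0.130, PSMG3 at 0.122 and PSME3 at 0.121.

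The activator subunits PSME1 and PSME2, which form a shared ring on the end of the core, had differences of opposite sign. PSME1 was at 5.64, 5.64, 5.65 and 5.79 in empty vector samples and at 5.56, 5.47, 5.56 and 5.67 with Siglec-XII, and only Siglec-XII sample 4 reached the empty vector range. Its difference was -0.12 (SE 0.06, 95% interval -0.25 to 0.02, limma adjusted p = 0.358). With quantile normalization it was -0.19 and with equal upper quartiles -0.18 (limma adjusted p = 0.221 and 0.220), the lowest adjusted p of the 46 genes there. PSME2 was at 5.35, 5.39, 5.41 and 5.52 in empty vector samples and at 5.50, 5.53, 5.41 and 5.69 with Siglec-XII, with Siglec-XII sample 3 among the lower empty vector values. Its difference was 0.12 (SE 0.07, 95% interval -0.04 to 0.27, limma adjusted p = 0.425). Like PSMB3 and PSMC4, each stood on 2 entries with identical values, so the TPM of the gene is 2 times that of an entry and the difference between groups is hardly affected.

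The constitutive counterparts were read next. PSMB5, the chymotrypsin-like subunit, was at 6.71, 6.91, 6.87 and 6.997 in empty vector samples and 6.90, 6.96, 6.95 and 7.10 with Siglec-XII. Empty vector sample 1 lay lowest and Siglec-XII sample 4 highest, with the rest overlapping, and the difference was 0.11 (SE 0.07, limma adjusted p = 0.465). PSMB6, the caspase-like subunit, was at 7.71, 7.84, 7.81 and 7.84 in empty vector samples and 7.70, 7.77, 7.85 and 7.91 with Siglec-XII. These ranges nearly coincided, and the difference was 0.01 (SE 0.05, limma adjusted p = 0.946). PSMB7, the trypsin-like subunit, was at 8.10, 8.22, 8.24 and 8.23 in empty vector samples and 8.33, 8.30, 8.31 and 8.39 with Siglec-XII. All its Siglec-XII samples lay above all empty vector samples, and the difference of 0.14 (SE 0.04, 95% interval 0.04 to 0.24) had a limma adjusted p of 0.193.

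The share of inducible subunits in each catalytic pair was compared within samples, where the scale of a library cancels. PSMB8 made up 10.4% ± 1.78 of the summed TPM of PSMB8 and PSMB5 in empty vector samples and 9.66% ± 0.960 with Siglec-XII. PSMB9 made up 4.65% ± 0.509 and 4.83% ± 0.600 of PSMB9 and PSMB6, and PSMB10 made up 4.11% ± 0.427 and 4.38% ± 0.334 of PSMB10 and PSMB7 (SD, n = 4 each). The constitutive transcript was thus the larger part of each pair in all 8 samples. Single samples ran from 8.43% to 12.7% for PSMB8, from 4.06% to 5.43% for PSMB9 and from 3.53% to 4.77% for PSMB10, with overlap of the groups in each pair. The log2 ratio of the taken entries, 1 TPM added to each, differed by -0.13 for PSMB8 to PSMB5, 0.03 for PSMB9 to PSMB6 and 0.08 for PSMB10 to PSMB7. Two-sided exact permutation tests gave p = 0.457, 0.829 and 0.457, and 0.686, 0.829 and 0.686 when adjusted over the 3 pairs.

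**Figure D3:**
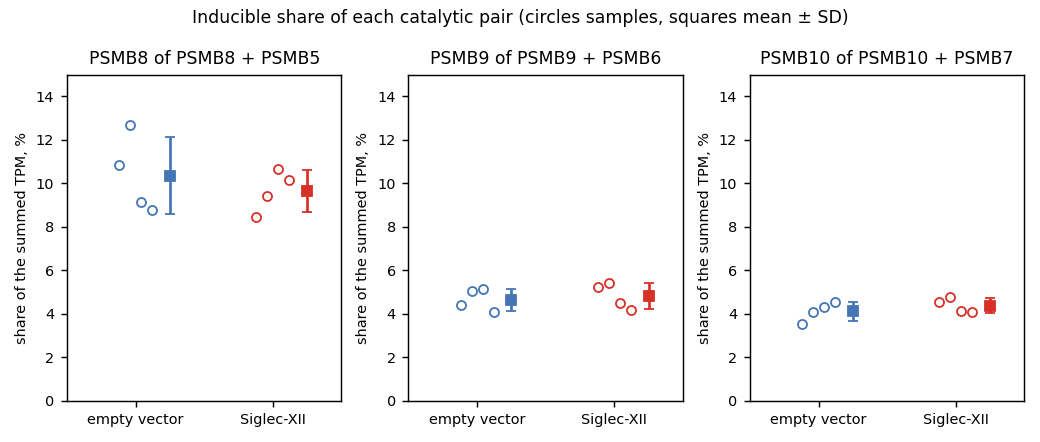
Share of the inducible subunit in the summed TPM of each catalytic pair (y axis, percent, all entries of a symbol summed), with open circles for the 4 samples of each group and squares for their mean ± SD. The groups overlap in all 3 panels, at about 10% for PSMB8 and between 3.53% and 5.43% for PSMB9 and PSMB10.

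Among the other 20S core genes the alpha ring, which gates the barrel, and the non-catalytic beta subunits showed no gene past the threshold. Over the 7 alpha genes, 3 differences were positive and 4 negative, from -0.10 for PSMA4 to 0.13 for PSMA7, with a median of -0.01. Over the 4 non-catalytic beta genes, 3 were positive and 1 negative, with a median of 0.03. In none of these 11 genes were the samples of the groups apart, against 10.8% of all tested entries. With so few genes this count says nothing particular about them.

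In the 19S particle, 12 of 17 differences were positive and 5 negative, with a median of 0.04. The 6 ATPases, which unfold substrates, had 3 of each sign, and PSMC3, at 8.11 ± 0.06 and 8.21 ± 0.04, had a difference of 0.10 (SE 0.04, limma adjusted p = 0.281). Of the 11 non-ATPase subunits, PSMD2, a scaffold of the particle's base, was at 8.50 ± 0.10 and 8.65 ± 0.07, with a difference of 0.15 (SE 0.06, limma adjusted p = 0.261). PSMD4, a ubiquitin receptor, had the most negative difference of the constitutive subunits, -0.11 (SE 0.05, limma adjusted p = 0.318).

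PSMD3, a subunit of the lid of the 19S particle, was at 7.36, 7.40, 7.39 and 7.27 in empty vector samples and 7.41, 7.44, 7.40 and 7.54 with Siglec-XII. All Siglec-XII values lay above all empty vector values, by a margin of less than 0.01 at the closest pair. The difference was 0.09 (SE 0.05, limma adjusted p = 0.370) on the deposited scale. It was 0.026 with quantile normalization, 0.031 with equal upper quartiles and 0.028 with the length trend removed.

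PSME3, the nuclear activator that does not form rings with PSME1 or PSME2, had the lowest adjusted p of the 46 genes on the deposited scale. It was at 7.84, 8.04, 7.99 and 8.03 in empty vector samples and 8.10, 8.12, 8.16 and 8.18 with Siglec-XII. The groups were apart, with empty vector sample 1 lowest, and the difference was 0.17 (SE 0.05, 95% interval 0.05 to 0.28, limma adjusted p = 0.173). PSME4, another activator, and PSMF1, an inhibitor of the core, had differences of 0.07 and 0.03. Among the 7 assembly factors, 5 differences were positive and 2 negative, up to 0.15 for PSMG3 (SE 0.08, limma adjusted p = 0.373). PSMG4, whose window held the same 10 letters as the inducible genes, was at 3.63 ± 0.16 and 3.73 ± 0.18, with a difference of 0.10 (SE 0.11, limma adjusted p = 0.711).

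In the 20S core genes, empty vector samples 1 and 4 were the lowest and highest of their group by median deviation. Their gap is between single libraries chosen as extremes, so it is not comparable with the difference of the group means. In the 7 alpha genes, empty vector sample 4 exceeded sample 1 in 7 of 7, with a median gap of 0.31 on the log2(TPM + 1) scale. In all 14 constitutive core genes the gap had a median of 0.27 and was positive in 13, whereas in the 17 genes of the 19S particle its median was -0.03 and it was positive in 7. Over all 15590 tested entries the median gap was 0.07. Length was taken from the single transcript named with each entry, which need not be the main transcript of the gene in these cells. Across the 46 genes these lengths ran from 377 to 7250 nucleotides. The gap had a Spearman rho of -0.30 with them, a description of a single pair of libraries. Genes under 1500 nucleotides had a median gap of 0.16 and longer ones 0.04. Length moved with this gap, and its part in it was not tested.

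**Figure D4:**
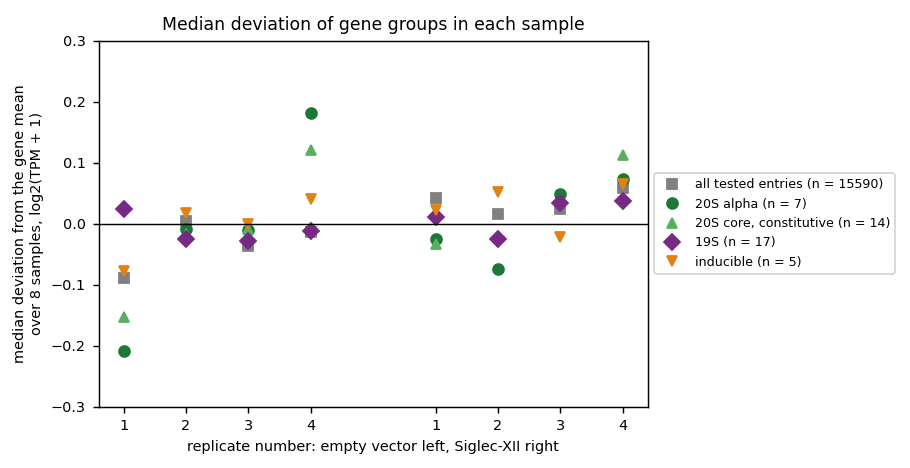
Median deviation of 4 gene groups and of all tested entries from each gene's mean over the 8 samples (y axis, log2(TPM + 1)) in each sample (x axis, empty vector left and Siglec-XII right). The 7 alpha genes run from -0.21 in empty vector sample 1 to 0.18 in empty vector sample 4, while the 17 genes of the 19S particle stay between -0.03 and 0.04.

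Genes that act with the proteasome but carry other symbols were read from a list of 31, all of which passed the filter. The list was chosen with earlier results of these data known. At a limma adjusted p under 0.05 only DDI2 was called, 1 of the 31, where 0.648% of all tested entries were. It encodes a protease that activates the transcription factor NFE2L1, which in turn drives proteasome genes. DDI2 ran from 4.32 to 4.45 log2(TPM + 1) in empty vector samples and from 4.67 to 4.81 with Siglec-XII. The groups were apart, and the difference was 0.36 (SE 0.06, limma adjusted p = 0.0364). This call was lost with the trend on transcript length removed, where the difference was 0.24 (limma adjusted p = 0.121), and when single samples other than empty vector sample 2 were left out, one at a time, where the difference stayed between 0.33 and 0.39. NFE2L1 itself was at 7.70 ± 0.10 and 7.78 ± 0.12, with a difference of 0.08 (SE 0.07, limma adjusted p = 0.600).

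At an unadjusted p under 0.05 the list had 8 genes higher and 1 lower (29.0%), against the 16.5% of all tested entries. Its median difference was 0.06, beside 0.07 for all tested entries. Both were taken on the deposited scale only. VCP, the segregase that extracts ubiquitinated proteins, and its cofactor NPLOC4 were apart between groups, with differences of 0.21 (SE 0.06, limma adjusted p = 0.162) and 0.20 (SE 0.06, limma adjusted p = 0.173). USP14, a deubiquitinase on the 19S particle, was apart as well, at 6.18 ± 0.07 and 6.29 ± 0.03. RPS27A, a ubiquitin fusion gene, was the only gene of the list whose Siglec-XII samples all lay below the empty vector samples. It was at 11.09 ± 0.15 and 10.93 ± 0.03, with a limma adjusted p of 0.296. With quantile normalization its difference went from -0.16 to -0.03, and that of USP14 from 0.12 to 0.05. Groups were apart in 5 genes of the list (16.1%), against 10.8% of all tested entries.

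Antigen presentation and interferon genes gave a second list of 29, of which 27 passed the filter. IFIT1, IFIT2 and IFIT3, interferon-induced RNA-binding proteins, were higher with Siglec-XII at a limma adjusted p under 0.05. They were 3 of the 27, where 0.648% of all tested entries were called. IFIT1 went from 0.40 ± 0.05 to 2.15 ± 0.04, IFIT2 from 0.42 ± 0.09 to 2.24 ± 0.07 and IFIT3 from 0.22 ± 0.10 to 1.57 ± 0.17 log2(TPM + 1) (SD, n = 4 each), with limma adjusted p = 0.000124, 0.000124 and 0.00237. These were low levels in both groups, and the reads behind them are unknown. The groups were apart in all 3 genes. Without any 1 of the Siglec-XII samples fewer than 4 samples reached 1 TPM, and the 3 genes were then not tested. They passed the filter only through the group in which they are high, so once tested their groups had to be apart. With no filter beyond a value above 0, their limma adjusted p were 0.00293, 0.00293 and 0.0157.

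The remaining genes of this list did not pass. IRF9, a transcription factor of the interferon response, was apart between groups at 1.96 ± 0.28 and 2.51 ± 0.14, with a difference of 0.54 (SE 0.15, limma adjusted p = 0.144). TAP1, the transporter gene next to PSMB9, was at 3.80 ± 0.40 and 4.11 ± 0.16 (limma adjusted p = 0.417), and TAP2 had a difference of 0.06 (limma adjusted p = 0.769). In all, 25 of the 27 differences (92.6%) were positive against 68.1% of all tested entries. An unadjusted limma p under 0.05 was found in 6 (22.2%) against 16.5% of all tested entries. The median was 0.16, beside 0.04 for the 5 inducible proteasome genes and 0.07 for all tested entries. The list was chosen with earlier results of these data known, and IFIT1, IFIT2 and IFIT3 had to be positive once tested. These shares therefore only describe the list. They were taken on the deposited scale alone. With quantile normalization the difference was 0.50 for IRF9, 0.25 for TAP1 and -0.0012 for TAP2.

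**Figure D5:**
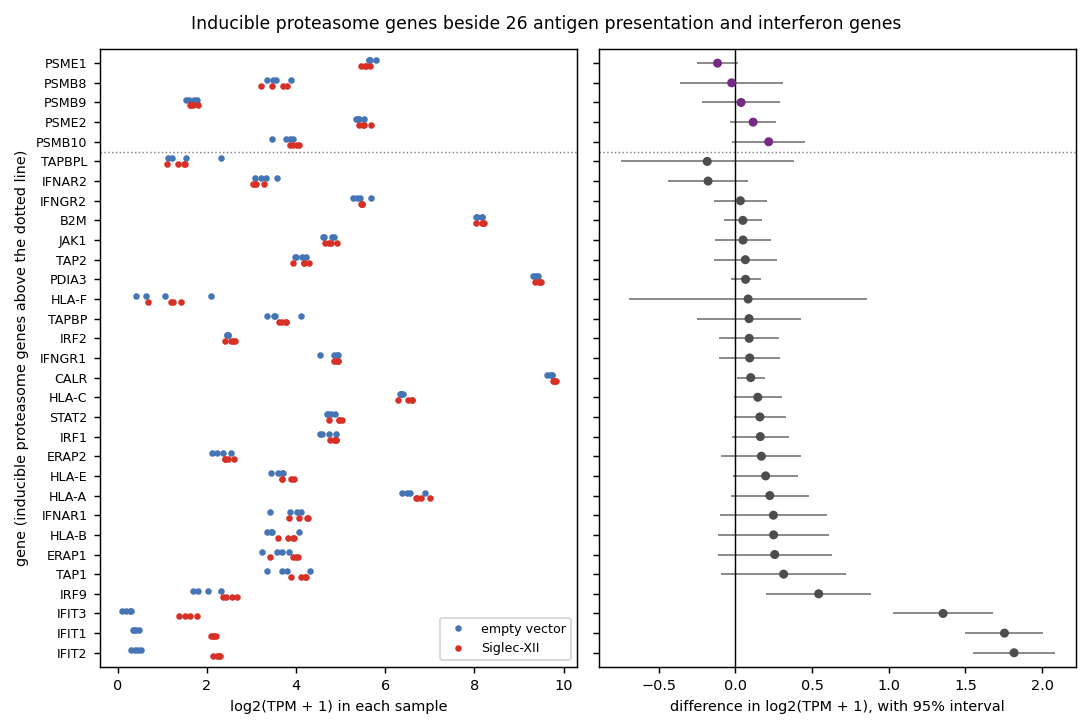
Left, log2(TPM + 1) in each sample (blue empty vector, red Siglec-XII) of the 5 inducible proteasome genes, above the dotted line, and of 26 of the 27 tested antigen presentation and interferon genes, each set ordered by its difference. Right, the difference Siglec-XII minus empty vector with its 95% interval from limma. IFIT1, IFIT2 and IFIT3 stand apart at 1.35 to 1.82, and the 5 inducible proteasome genes lie between -0.12 and 0.22.

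The genes whose windows held GAAAGCGAAA were also read as a group, a choice made after the windows had been seen. There were 34 such genes, and 23 of them passed the filter. Of the 18 that are not proteasome genes, 13 (72.2%) had a positive difference against 68.1% of all tested entries, 4 (22.2%) had an unadjusted p under 0.05 against 16.5%, and 0 passed adjustment by limma. Their median difference was 0.08, beside 0.07 for all tested entries. This group, too, was read on the deposited scale only.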

How the data were processed

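RNA-seq of 4 empty vector and 4 Siglec-XII samples of Caco-2 cells was analysed from a single table. The authors quantified reads with kallisto (version 0.45.0 in the submitters' processing notes, a different version in the study's methods) against human build hg19 and deposited log2(TPM + 1) values per gene entry. The labels name a total RNA kit and the methods an mRNA kit, so the share of RNA without a poly(A) tail is unclear. Each column summed to 1000000 TPM, so neither library depth nor the counting error of a value is known, and the count model of the study was not used.

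Groups were taken from the labels and compared with limma 3.58.1 in R 4.3.3 (lmFit, eBayes with trend, Benjamini-Hochberg adjustment) over the 15590 entries with at least 1 TPM in at least 4 samples. The 95% intervals are limma's. Ratios within samples were compared by two-sided exact permutation tests over 70 labellings. GRCh37 positions and transcript lengths came from GENCODE lifted to that build, in which 45 of the 48 taken entries had their gene ID. The length of an entry is that of the single transcript named with it, or a median where that transcript was not found. It may differ from the length of the RNA measured, and the removal of the length trend rests on it. Promoter windows of RefSeq were matched by symbol. Pseudogene entries of the genes held at most 1.95% of the TPM of their gene (PSMC1). The fit was tested on simulated data. Plots were made in Python 3.11.15 with matplotlib 3.10.9.

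The genes, the role classes, the companion list, the antigen presentation list and the marker lists (intestinal epithelium, trophoblast, blood cells, fibroblast) were chosen with earlier results of these data known. Some genes of these lists are not reported here by name. Values in every sample are given for the inducible genes, their catalytic counterparts and any proteasome gene called or with groups apart. Genes of the other lists are given by means or ranges. PSMB8-AS1 overlaps PSMB8, and reads shared by such pairs are uncertain because the strand setting of the quantification is not given in the sources used here. Alternatives changed the pseudocount (to 0.1), the filter (any value above 0, or 5 TPM on average), the scale (quantile normalization, equal upper quartiles, protein-coding entries only, removal of the trend on transcript length) and the model (eBayes without trend, a block on the replicate number), left out single samples and, chosen after seeing the data, the entries of a symbol summed.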

Additional observations from a re-analysis of the deposited data

Results flagged for a closer look

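In 6 of 98 groups of 4 samples, 1 sample stood apart from the other 3 by Dixon's ratio (its gap to the nearest sample divided by the range, critical value 0.829), where chance gives about 1 in 20. All 6 were in the empty vector group. PSME1 was high in empty vector sample 4 (ratio 0.945, 5.79 against 5.65 log2(TPM + 1) for the nearest), as was PSMC6 (ratio 0.845, 7.66 against 7.49). PSMB7 was low in empty vector sample 1 (ratio 0.830, 8.10 against 8.22), as was PSMB4 (ratio 0.842, 7.61 against 7.76), whereas PSMD7 was high in that sample (ratio 0.829, 7.44 against 7.24). PSMD1 was high in empty vector sample 2 (ratio 0.879, 6.77 against 6.69).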

How the results depend on the processing

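No proteasome gene passed an adjusted p of 0.05 in any of the 18 alternatives, where the lowest limma adjusted p was 0.130 and between 2 and 9 genes had an unadjusted p under 0.05. The median difference of the genes ran from -0.01 to 0.06 and at most 12 of the 46 changed sign. The settings were followed gene by gene only for some of the named genes. Among those, each sign change stayed within the spread of the gene. PSMB8 became 0.0069 with entries summed and ran from -0.11 to 0.084 with single samples left out. PSMB9 became -0.0028 with quantile normalization, -0.0053 with equal upper quartiles and -0.0093 with the length trend removed, and PSMB6 became -0.0325, -0.0517 and -0.0396 under the same settings. With single samples left out PSMB9 ran from -0.0072 to 0.0819 and PSMB6 from -0.0251 to 0.0459. TAP2 became -0.0012 with quantile normalization and -0.0372 with the length trend removed. With single samples left out the ratio of PSMB9 to PSMB6 ran from -0.0297 to 0.0831, that of PSMB8 to PSMB5 from -0.21 to -0.04 and that of PSMB10 to PSMB7 from 0.01 to 0.13. The count of genes with groups apart, 3, became 7 with quantile normalization and 6 with equal upper quartiles, and ran from 3 to 9 with single samples left out (9 without empty vector sample 1 and 8 without sample 4, against 13.8% and 14.5% of all tested entries, and between 13.4% and 19.3% over all samples left out). DDI2, the 1 gene called among the companions, was lost with no filter beyond a value above 0, with the length trend removed, without the eBayes trend and with the replicate block, each giving 0 calls, and the count ran from 0 to 1 with single samples left out. The 3 IFIT genes were not tested at a mean of at least 5 TPM, which gave 0 calls, and the count ran from 0 to 3 with single samples left out, 0 for each Siglec-XII sample since too few samples then passed the filter. The SIGLEC12 difference of 10.59 ran from 10.57 to 10.62 with single samples left out, where p can go no lower than 0.0571. Same-numbered samples did not deviate together (correlations 0.04, 0.03, -0.07 and 0.06). These values give no sign of a pairing by number, but they do not show how cultures or libraries were handled. With the replicate block the SIGLEC12 sign-flip p was 0.125, the lowest possible, and its difference 10.59. The cause of the other changes was not tested. Depth could not be used to set limits because TPM keeps none.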
